A study of Mus musculus with 15 samples.

Results

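Macrophages are tissue phagocytes, and the 37 genes described here encode their lineage regulators, surface receptors, complement chains, oxidase subunits and lipid enzymes. They were selected by name among 53510 gene symbols that 2 RNA-seq count tables share. The selection used their known pattern in these data, high in the RPM lung lines and low in the RPMS lung lines, so values of that contrast are given as a description without a test. All 37 were found in both tables, and all 37 had a gene model on GRCm38.

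The RNA came from mouse small cell lung cancer cells taken from tissue and kept in culture with little fetal calf serum, per the labels' protocols. Per the labels, RPM lines carried the genotype Rb1-/-:Trp53-/-:MYC, and RPMS lines carried Rb1-/-:Trp53-/-:STAT3-/-:MYC, so that loss of Rb1 and Trp53 and the MYC allele are common to every group. In the first table, the 4 RPM libraries are lung lines CMV_426 through CMV_429, and the 3 RPMS libraries are lung lines CMV_228, CMV_231 and CMV_252. In the second, all 8 libraries are RPMS: the same 3 lung lines with CMV_232, and 4 liver lines, CMV_273, CMV_341, CMV_343 and CMV_344. Each line has 1 library per table. The labels name separate lines, but not the animals behind them, so spread between libraries may in part be technical. Lines may also share an animal, and the tests treat each line as independent, so their p values may be too small. The promoter that drove recombination, the ages of the mice and the clonality of the lines are not given in the sources used here.

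Levels are CPM, read counts scaled to a common library size with TMM factors within each table, and CPM per kb of exon where genes are compared with each other. Total counts ran from 25344949 to 31345631 in the first table and from 9453715 to 18451248 in the second. A floor of 3 counts equals 0.0907 to 0.12 CPM in the first table and 0.16 to 0.292 CPM in the second, which covers counting error only. Stat3 was at 160 to 209 CPM in the RPM lines, at 7.83 to 19.0 CPM in the RPMS lines of the first table and at 11.2 to 28.5 CPM in the second table. Rb1 was at 22.0 to 162 CPM over all 15 libraries, so its level does not show the deletion. Trp53 was at 2.40 to 6.33 CPM in the RPM lines. In CMV_228 and CMV_231 it was at 0.399 and 0.571 CPM in the first table but at 18.0 and 16.8 CPM in the second, where all libraries were at 13.7 CPM or more. In CMV_252 Trp53 was at 6.19 CPM in the first table, within the range of the RPM lines. The labelled cell type of all libraries is lung epithelium. The summed level of 14 neuroendocrine tumour genes was 15.5 to 78.8 CPM in the RPM lines and 1326 to 4379 CPM in the RPMS lung lines of the first table, so the RPM libraries were low for the tumour type they are labelled with. Line CMV_252 stood apart in both tables. In the first, the same sum was 1326 CPM there against 4379 CPM in CMV_228 and 4363 CPM in CMV_231. Rb1 was at 22.0 CPM in CMV_252 against 124 and 130 CPM in those lines. In the second table, the neuroendocrine sum of CMV_252 was 186 CPM against 3482 to 4763 CPM in the other 3 RPMS lung lines. Its 2 libraries also differed in Lyz2, at 124 CPM in the first table and 1.31 CPM in the second.

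Macrophages and monocytes depend on the transcription factor PU.1 and on signalling through the CSF1 receptor. They engulf particles through scavenger, lectin and Fc receptors, and the Fc receptors and several lectins signal through small adaptors with ITAM motifs. In the lung, alveolar macrophages live in the airspace, depend on GM-CSF and PPAR-gamma and clear surfactant, while interstitial macrophages live in the tissue and many resemble macrophages of other organs. Monocytes are the circulating precursors of recruited macrophages.

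Most of the 37 genes were abundant in every RPM lung line. Of the 37, 30 reached 10 CPM in each of the 4 lines and 17 reached 100 CPM in each. Their summed level was 25965 CPM in CMV_426, 19870 CPM in CMV_427, 5669 CPM in CMV_428 and 7958 CPM in CMV_429, which is 2.36%, 1.93%, 0.558% and 0.788% of the counts of those libraries. In the RPMS lung lines of the first table the sum was 20.1 CPM in CMV_228, 18.3 CPM in CMV_231 and 137 CPM in CMV_252. In these bulk libraries, fewer cells of a type and less RNA per cell cannot be told apart. Of the 37 genes, 20 had no count in any RPMS library of the first table, 5 had 1 to 3 counts in all, and 12 had more. Where RPM and RPMS lines are set side by side, the values of RPMS lines are those of the first table. The RPM and RPMS libraries did not overlap for 36 of the 37 genes, and Cd163 was the exception. For Itgax and Marco the lowest RPM library had 3 counts, which is the floor. Itgax, Marco and Cd163 did not pass the filter on low counts, so they are outside the genes tested that the next share covers. Over all genes tested, 21.9% had every RPM library above every RPMS library of the first table. By another measure, 15.7% of genes were called lower and 14.9% higher in RPMS lines at an edgeR adjusted p under 0.05, and the members' pattern is fixed by how they were chosen.

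**Figure D1:**
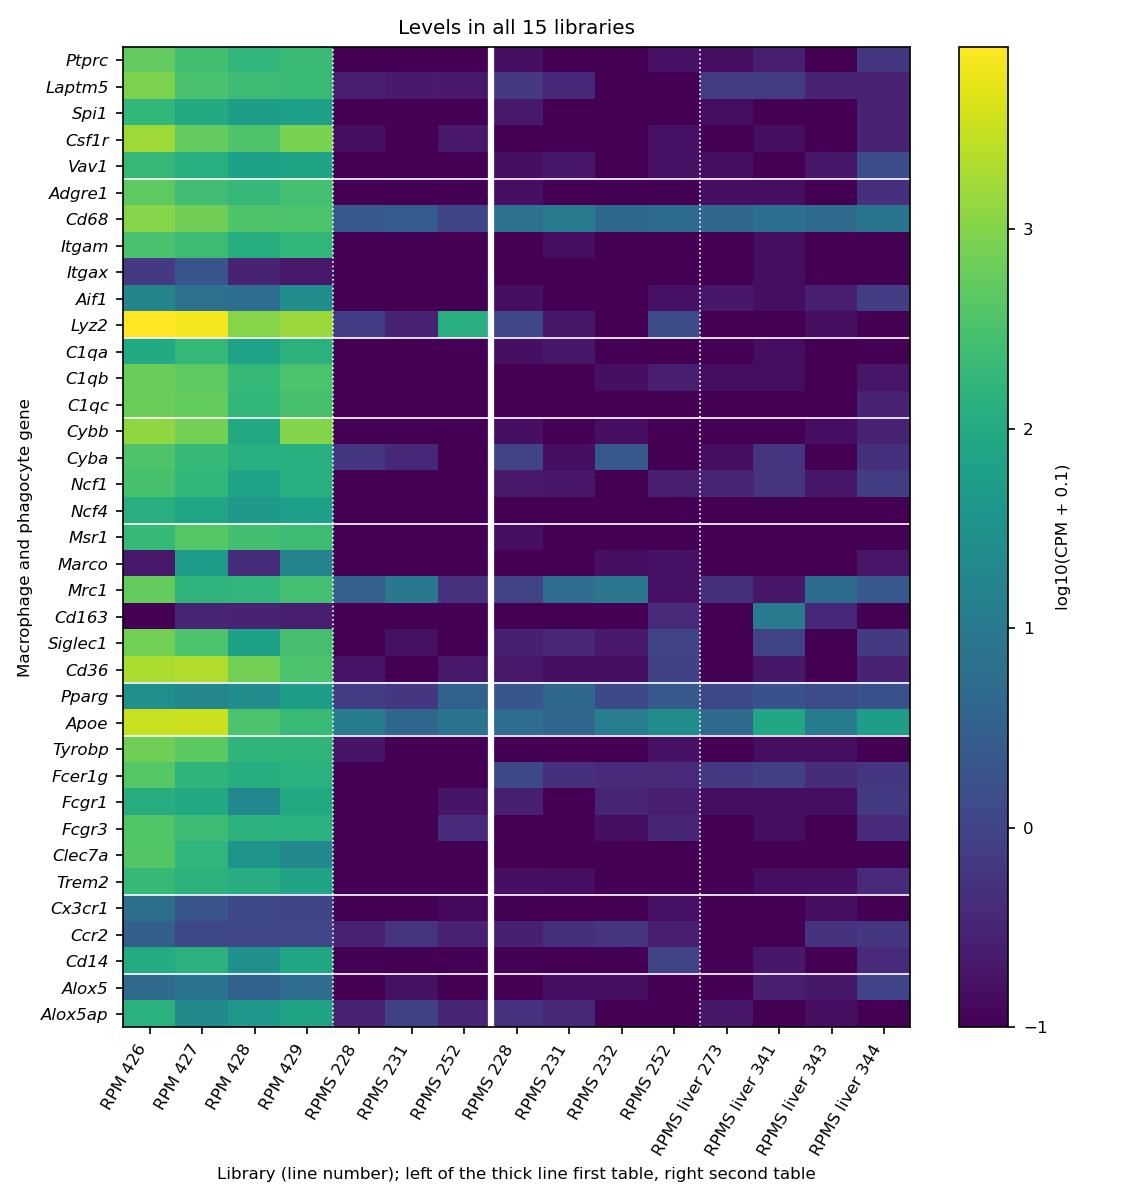
Level of each of the 37 genes (rows) in each of the 15 libraries (columns, by line), as log10(CPM + 0.1). The 4 RPM lung columns are high for nearly all genes and the RPMS columns of both tables are near the floor, apart from genes such as Apoe, Cd68 and Mrc1.

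Compared per kb of exon, so that long and short genes stand on the same scale, Lyz2 led with a mean of 3304 CPM per kb over the RPM lines. Lyz2 encodes lysozyme, an enzyme that digests bacterial walls. Apoe followed at 849, Tyrobp at 560, Cd68 at 485, C1qb at 377 and Cd36 at 374 CPM per kb. At the other end stood Itgax at 0.143 and Cd163 at 0.0267 CPM per kb, with the chemokine receptors Ccr2 at 0.224 and Cx3cr1 at 0.573 CPM per kb just above them.

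**Figure D2:**
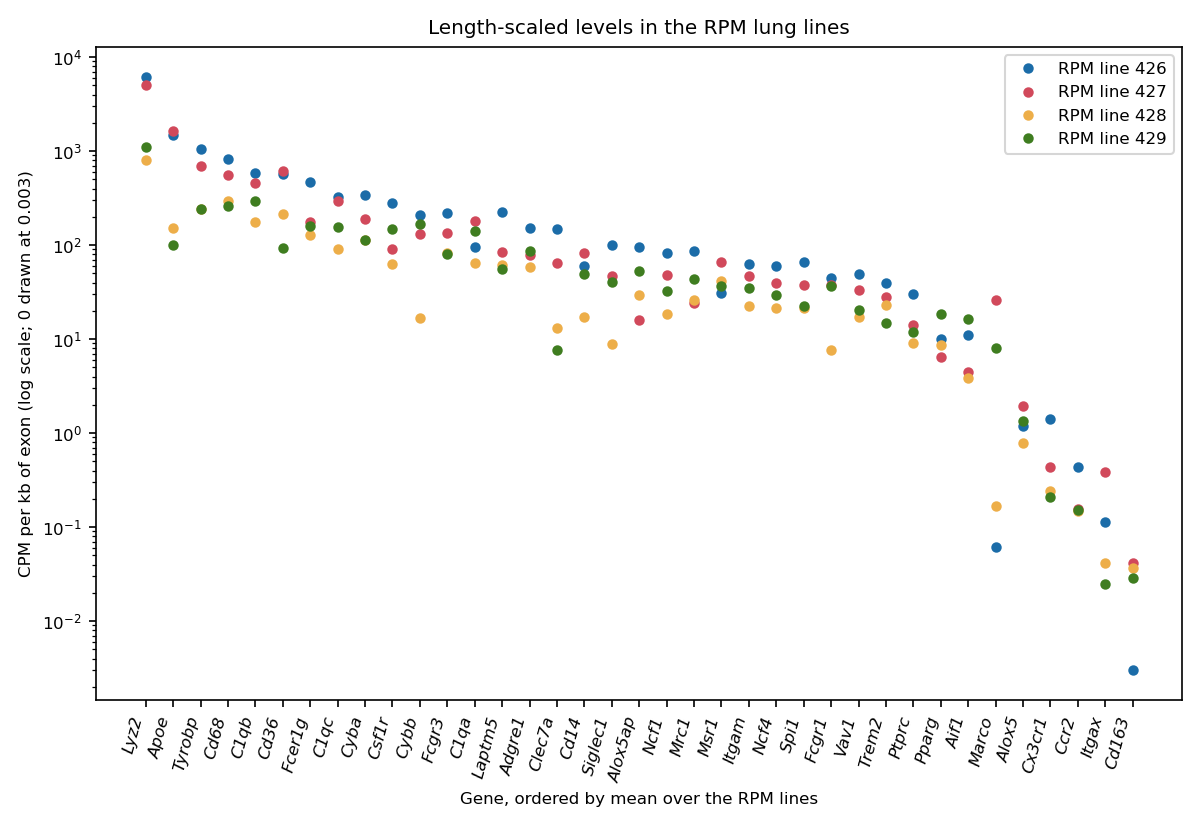
CPM per kb of exon (log axis) of the 37 genes in the 4 RPM lung lines, 1 point per line, with genes ordered by their mean. Levels fall from 3304 for Lyz2 to 0.0267 for Cd163 in the mean, and Marco shows the widest scatter between lines.

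The lineage genes were present in all 4 RPM lines. Spi1, which encodes PU.1, was at 176 CPM in CMV_426, 101 CPM in CMV_427, 57.4 CPM in CMV_428 and 59.9 CPM in CMV_429, and had no count in the RPMS libraries of the first table. Csf1r, which encodes the CSF1 receptor, was at 1624, 529, 368 and 853 CPM in the same order of lines, and at 0.0614, 0 and 0.121 CPM in CMV_228, CMV_231 and CMV_252. Both genes were highest in CMV_426. Ptprc, the pan-leukocyte antigen CD45, was at 548, 262, 168 and 218 CPM in the RPM lines, in the same order, with no count in the RPMS lines of the first table. Laptm5, a lysosomal membrane protein of blood cells, was at 862, 317, 232.4 and 212 CPM. Vav1, an exchange factor of leukocyte signalling, was at 183, 122, 63.7 and 74.7 CPM. Against a floor of 3 counts per RPMS library, the mean RPM level of Ptprc was at least 3227-fold, of Vav1 at least 1197-fold and of Spi1 at least 1065-fold higher.

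Of the genes used to recognise macrophages, most were high and Itgax, the CD11c integrin chain of alveolar macrophages and dendritic cells, was near the floor. Adgre1, the F4/80 antigen, was at 489 CPM in CMV_426, 257 CPM in CMV_427, 188 CPM in CMV_428 and 281 CPM in CMV_429, with no count in RPMS libraries of the first table. Itgam, the CD11b integrin chain, was at 315, 236, 114 and 175 CPM, again with no count in the RPMS libraries of the first table. Itgax was at 0.549, 1.87, 0.2 and 0.119 CPM, so Itgam exceeded Itgax in each line. Per kb of exon the means were 41.9 for Itgam and 0.143 for Itgax. Exons of Itgam share 68.7% of their bases with another gene model on the same strand, so its counts are uncertain. Cd68, a lysosomal glycoprotein of macrophages, was at 1042, 702, 366 and 329 CPM in RPM lines and at 2.27, 2.57 and 0.967 CPM in RPMS lines. Lyz2 was at 8146, 6725, 1062 and 1459 CPM, and at 0.706, 0.19 and 124 CPM in the RPMS lines CMV_228, CMV_231 and CMV_252. Within the first table, the RPMS lines other than CMV_252 had under 1 CPM of Lyz2. Its near-identical neighbour Lyz1 was at 260, 0, 0 and 21.6 CPM in the RPM lines, and how reads were split between the 2 genes is not given in the sources used here. Aif1, an actin-binding protein of macrophages, was lower, at 16.9, 6.89, 5.97 and 25.2 CPM, and was highest in CMV_429.

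The 3 chains of C1q, which macrophages secrete to start the classical complement pathway, lie side by side on chromosome 4. C1qa spans 136895917 to 136898803, C1qb 136880129 to 136886187 and C1qc 136889804 to 136893065. C1qb was at 632 CPM in CMV_426, 492 CPM in CMV_427, 193 CPM in CMV_428 and 324 CPM in CMV_429. C1qc was at 632, 569, 175 and 301 CPM in that order. These 2 chains followed the same order of lines. C1qa was lower and ordered otherwise, at 100.2, 186, 67.6 and 146 CPM, with its highest value in CMV_427. None of the 3 had a count in the RPMS libraries of the first table, and the mean RPM level was at least 4523-fold higher for C1qc and at least 1348-fold higher for C1qa.

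The phagocyte NADPH oxidase makes superoxide at the membrane of the phagosome, and all 4 subunits among the members were present in each RPM line. Cybb (chromosome X, 9435252 to 9487771), the catalytic subunit gp91phox, was at 1221 CPM in CMV_426, 761 CPM in CMV_427, 96.8 CPM in CMV_428 and 984 CPM in CMV_429. CMV_428 was low for Cybb relative to the other 3 lines. Cyba, its membrane partner p22phox, was at 357, 199, 118 and 119 CPM. Ncf1, the organizing subunit p47phox, was at 303, 177, 68.4 and 120.5 CPM. Ncf4, the subunit p40phox, was at 122, 80.1, 43.1 and 59.2 CPM. For Cyba, Ncf1 and Ncf4 the highest line was 2.82 to 4.44 times the lowest, against 12.6 times for Cybb. The RPMS libraries of the first table had no count of Cybb, Ncf1 or Ncf4, and Cyba was at 0.491, 0.254 and 0 CPM there.

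Promoters are printed for members whose levels moved together (C1qb, C1qc) or differed most between RPM lines in their family (Cybb, Marco), among those with an entry in the RefSeq promoter table. That table covers 250 bases before to 50 bases after a start site on GRCm38.p6, and 27 of the 37 genes matched it with 34 promoters. Capitals mark GAGGAA, the core that PU.1 sites contain, or its reverse complement TTCCTC. All 4 genes lie on the minus strand, at chr4:136886151-136886450 (C1qb), chr4:136892865-136893164 (C1qc), chrX:9469275-9469574 (Cybb) and chr1:120504975-120505274 (Marco).
C1qb: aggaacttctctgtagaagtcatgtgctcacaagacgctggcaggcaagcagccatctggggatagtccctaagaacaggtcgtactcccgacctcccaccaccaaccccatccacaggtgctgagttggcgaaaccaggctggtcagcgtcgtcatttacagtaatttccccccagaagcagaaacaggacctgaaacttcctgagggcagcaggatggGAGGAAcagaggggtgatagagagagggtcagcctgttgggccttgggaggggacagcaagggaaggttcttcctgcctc
C1qc: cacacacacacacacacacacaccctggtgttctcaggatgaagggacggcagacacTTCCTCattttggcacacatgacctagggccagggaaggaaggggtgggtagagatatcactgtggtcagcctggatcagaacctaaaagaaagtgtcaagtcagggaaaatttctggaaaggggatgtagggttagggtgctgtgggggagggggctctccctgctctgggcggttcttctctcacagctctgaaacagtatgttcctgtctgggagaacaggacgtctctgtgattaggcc
Cybb: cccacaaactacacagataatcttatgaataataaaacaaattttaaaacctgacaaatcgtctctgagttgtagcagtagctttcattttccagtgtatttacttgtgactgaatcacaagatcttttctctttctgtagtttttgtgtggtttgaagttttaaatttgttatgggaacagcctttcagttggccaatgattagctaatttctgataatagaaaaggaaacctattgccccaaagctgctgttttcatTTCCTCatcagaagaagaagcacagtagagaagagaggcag
Marco: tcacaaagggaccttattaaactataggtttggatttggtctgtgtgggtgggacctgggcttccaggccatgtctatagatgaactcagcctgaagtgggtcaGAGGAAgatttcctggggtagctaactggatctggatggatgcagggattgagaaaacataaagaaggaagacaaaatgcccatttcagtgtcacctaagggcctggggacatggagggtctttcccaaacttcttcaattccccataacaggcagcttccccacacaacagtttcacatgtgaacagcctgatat
GAGGAA, sought on both strands, was in 21 of the 34 member promoters (61.8%) and in 28.3% of all 32851 promoters of the table. The longer GAGGAAGT, which contains it, was in 2 of the 34, those of C1qc and Vav1, and in 3.20% of all. TATAAA was in 5 of the 34 (14.7%) and in 13.6% of all. In the printed windows the match began 30 bases before the start site in C1qb, 193 before it in C1qc and 146 before it in Marco, and 9 bases after it in Cybb. These are matches of letters, and binding was not measured.

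Scavenger receptors, which take up modified lipoproteins, dead cells and microbes, included both high and nearly silent members. Cd36, a receptor for oxidized lipoprotein and fatty acids, was at 2045 CPM in CMV_426, 2213 CPM in CMV_427, 770.3 CPM in CMV_428 and 335 CPM in CMV_429, against at most 0.121 CPM in RPMS lines of the first table. Msr1, the class A scavenger receptor, was at 196, 419.5, 266 and 232.2 CPM. Mrc1, the mannose receptor CD206, was at 553, 153, 167 and 276 CPM. Each of these 3 was thus at 153 CPM or more in every RPM line, with different lines on top. Siglec1, the sialoadhesin of tissue macrophages, was at 721, 336, 63.5 and 289.7 CPM, and was lowest in CMV_428 as Cybb was. Marco, a class A receptor of alveolar and marginal zone macrophages, was at 0.118, 49.9, 0.321 and 15.3 CPM, so that CMV_427 and CMV_429 had it and the other 2 lines were at or near the floor. Cd163, the haemoglobin scavenger receptor, was at 0, 0.225, 0.2 and 0.159 CPM in the RPM lines, near the floor in all.

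The 2 lipid genes behaved differently between lines. Apoe, an apolipoprotein that carries cholesterol out of macrophages, was at 3195 CPM in CMV_426, 3518 CPM in CMV_427, 328 CPM in CMV_428 and 217 CPM in CMV_429. Pparg, the nuclear receptor that alveolar macrophages need to develop, was at 29.5, 19.0, 25.7 and 54.5 CPM. CMV_429 was thus lowest for Apoe and highest for Pparg. In the RPMS lines of the first table, Apoe was at 12.1, 4.19 and 7.8 CPM and Pparg at 0.676, 0.508 and 3.29 CPM, so both remained measurable there.

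The adaptors Tyrobp (DAP12) and Fcer1g (the Fc receptor gamma chain) and the receptors grouped with them here were present in all RPM lines. Tyrobp was at 709 CPM in CMV_426, 462 CPM in CMV_427, 161 CPM in CMV_428 and 162 CPM in CMV_429. Fcer1g was at 406, 154, 113 and 138 CPM. Trem2, a lipid receptor that signals through DAP12, was at 196, 140.0, 113 and 72.7 CPM. All 3 were highest in CMV_426. Fcgr3, a low-affinity IgG receptor, was at 381, 234, 144 and 139 CPM. Fcgr1, the high-affinity IgG receptor, was at 115, 98.3, 19.8 and 95.5 CPM. CMV_428 was low for Fcgr1 relative to the other 3 lines, whereas for Fcgr3 it was level with CMV_429. Clec7a, the beta-glucan receptor Dectin-1, had the steepest gradient of the group, at 393, 171, 34.8 and 20.3 CPM.

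The 3 monocyte-associated receptors were unequal. Cd14, the lipopolysaccharide co-receptor, was at 103 CPM in CMV_426, 144 CPM in CMV_427, 29.9 CPM in CMV_428 and 86.1 CPM in CMV_429. Cx3cr1, the fractalkine receptor, was at 6.31, 1.98, 1.08 and 0.951 CPM. Ccr2, which brings classical monocytes out of the marrow, was at 2.98, 1.05, 1.00 and 1.03 CPM, against 0.184, 0.476 and 0.181 CPM in RPMS lines of the first table. The ratio of mean levels was 5.40 for Ccr2, the smallest of the 12 members with more than 3 counts in the RPMS libraries. Of the 2 leukotriene genes, Alox5, the lipoxygenase, was at 4.86, 7.93, 3.21 and 5.55 CPM. Alox5ap, its activating protein, was at 136, 22.7, 41.4 and 75 CPM.

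Line CMV_426 had the highest value for 26 of the 37 genes, CMV_427 for 9, CMV_429 for 2 and CMV_428 for none. CMV_428 was lowest for 22 genes, CMV_429 for 9, CMV_426 for 3 and CMV_427 for 3. To separate the summed level of these genes from the proportions between them, each gene was divided by a pan-macrophage sum of Ptprc, Csf1r, Tyrobp, Fcer1g, Laptm5, Spi1, Cd68 and Aif1 in the same library. That sum was 5385 CPM in CMV_426, 2534 CPM in CMV_427, 1471 CPM in CMV_428 and 1997 CPM in CMV_429. It is the level of 8 member genes, and which cells it came from was not tested. For the 26 other members with more than 3 counts in each RPM line, the median ratio of the highest to the lowest line was 3.43 in CPM and 2.71 after this division. The ratio became smaller for 22 of the 26, and it was under 2 for none before and for 10 after. With 1 library per line, lines were not tested against each other.

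**Figure D3:**
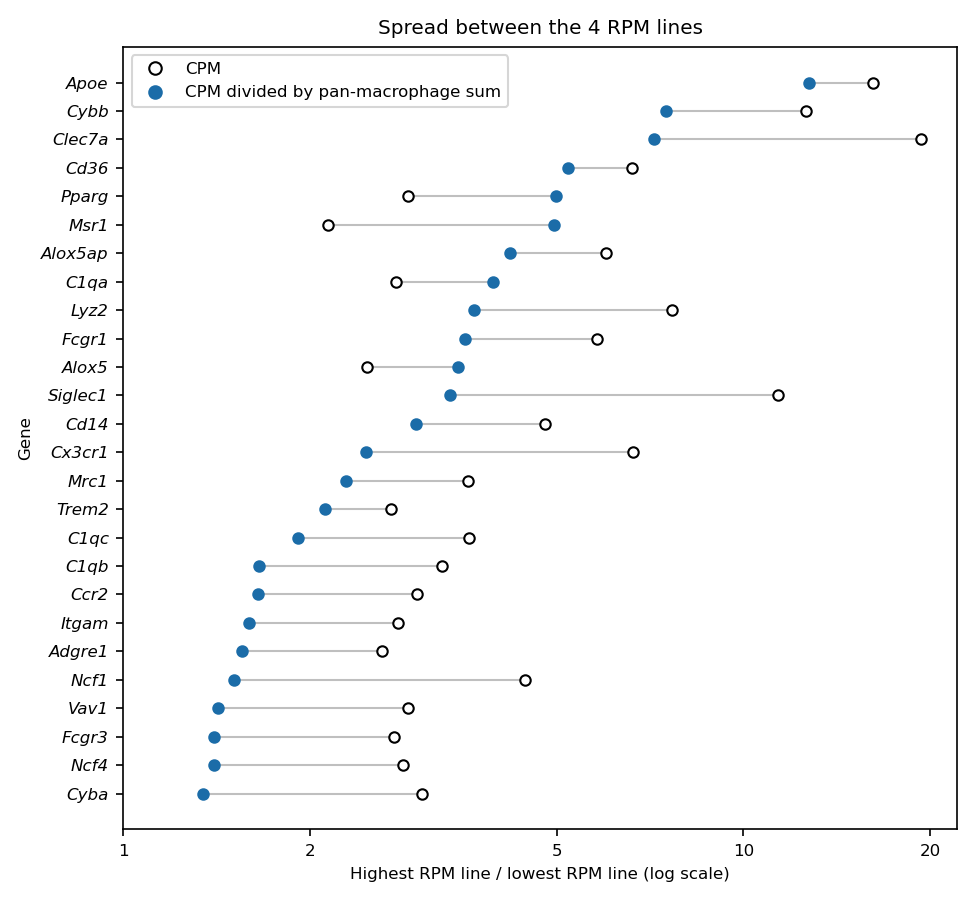
Ratio of the highest to the lowest RPM line (log axis) for 26 genes, in CPM (open points) and after division by the pan-macrophage sum (filled points). After division Cyba is at 1.34 and Ncf4 and Fcgr3 are at 1.40, while Apoe stays at 12.8, Cybb at 7.49 and Clec7a at 7.18.

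After division the lines still differed in the proportions of these genes. Cyba ran from 5.96% to 8.0% of the pan-macrophage sum, Ncf4 from 2.26% to 3.16% and Fcgr3 from 6.98% to 9.78%, so these were near constant. Cybb was 22.7% of the sum in CMV_426, 30.0% in CMV_427, 6.58% in CMV_428 and 49.3% in CMV_429. Cybb thus varied 7.49-fold while its partner Cyba varied 1.34-fold. Apoe was 59.3%, 139%, 22.3% and 10.9% of the sum in the same order. Msr1 was 3.64%, 16.6%, 18.1% and 11.6%, and was lowest in CMV_426, the line with the highest pan-macrophage sum. Pparg was 0.548%, 0.749%, 1.75% and 2.73%, and was higher in the 2 lines with the smaller Apoe share. C1qa was 1.86%, 7.33%, 4.59% and 7.31%, a spread of 3.94-fold, whereas C1qb spread 1.66-fold. After division CMV_427 was highest for 12 of the 26 genes, CMV_429 for 7, CMV_428 for 5 and CMV_426 for 2. Division by a sum in which Csf1r and Cd68 weigh most carries their own differences into every ratio.

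To ask which macrophage programme the RPM lines held, marker lists of alveolar, interstitial and Kupffer macrophages and of monocytes were read in the same libraries. None of these lists contains a member. Of 25 alveolar macrophage genes, 10 had no count in any RPM library and another had 3 counts in all. A further 10 of the 25 reached 10 CPM in every RPM line. So did 7 of 21 interstitial, 3 of 16 monocyte and 3 of 14 Kupffer cell genes. The 10 alveolar genes without a count are Siglecf (listed in the tables under its synonym Siglec5), Car4, Chil3, Ear1, Ear2, Krt79, Cidec, Plet1, Olr1 and Cd200r4. Siglecf, the sialic acid receptor that defines mouse alveolar macrophages, Car4, a carbonic anhydrase, and the chitinase-like Chil3 are among their most used markers. Ear1, Ear2, Chil3 and Siglecf belong to gene families with close copies, and reads shared between copies may not be counted. Of the 13 alveolar genes tested, 9 were lower in RPMS lines and none higher by edgeR, where 15.7% of all genes were lower. The count of lower genes was 6 without CMV_228 and 6 without CMV_231. A marker at 0 in RPMS lines enters the test only if it is high enough in RPM lines, so this count, like those of the lists that follow, is a description and is not read against that share. For the same reason, the adjusted p of a gene with no count in RPMS lines, here and below, is not independent evidence. Those present include Fabp4, a fatty acid carrier, at 239, 115, 66.5 and 37.4 CPM in the RPM lines with no count in RPMS lines (at least 1233-fold lower, edgeR adjusted p = 0.00385). Lpl, lipoprotein lipase, was at 440.2, 1513, 1507 and 590.4 CPM, against 15.1, 12.3 and 110.2 CPM (log2 fold change -4.46 with an SE of 1.05, edgeR adjusted p = 0.0196). The Lpl call was lost without CMV_228 (edgeR adjusted p = 0.0641) and without CMV_231 (0.0556). The GM-CSF receptor chains were both lower in RPMS lines. Csf2rb fell from 10.3 to 98.2 CPM in RPM lines to at most 0.0302 CPM (edgeR adjusted p = 0.00292), and Csf2ra from 19.5 to 93.1 CPM to 5.5 to 7.77 CPM (edgeR adjusted p = 0.0107). Bhlhe41, a regulator of alveolar macrophage identity, was at 315, 111, 80.9 and 51.8 CPM against 51.4, 60.5 and 63.9 CPM, and did not pass (edgeR adjusted p = 0.165).

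Ctsk, cathepsin K, was the highest gene of the alveolar list at 1086 CPM per kb, and osteoclasts also make it. It was at 3170 CPM in CMV_426, 2570 CPM in CMV_427, 524 CPM in CMV_428 and 306 CPM in CMV_429, against at most 0.921 CPM in RPMS lines (edgeR adjusted p = 0.00335). The log2 ratio of the alveolar to the interstitial sum per kb of exon was 1.70, 2.11, 0.98 and -0.08 in the 4 RPM lines. Ctsk made up 88.4%, 86.2%, 59.4% and 51.6% of the alveolar sum. Without Ctsk the log2 ratio was -1.41, -0.74, -0.32 and -1.13, an alternative added after the data were seen. In CPM with Ctsk the ratio was 1.12, 1.98, 1.64 and 0.46. Per kb of exon, the sign of the balance between the 2 lists therefore depended on this gene in CMV_426, CMV_427 and CMV_428. In CMV_429 it depended on the length scaling. The alveolar sums in CPM were 4783, 4725, 2571 and 1497.5, against interstitial sums of 2206, 1197, 822 and 1092 CPM. In CPM without Ctsk, the alveolar sum was below the interstitial sum in CMV_426 alone. The length scaling thus also decided the sign without Ctsk in the other lines. Of 10 osteoclast genes 6 were tested and 5 were lower in RPMS lines, with the transcription factor Nfatc1 at 66.6, 32.2, 31.8 and 43.9 CPM in RPM lines (edgeR adjusted p = 0.00318) and the receptor Tnfrsf11a at 50.7, 16.1, 28.9 and 14.9 CPM (edgeR adjusted p = 0.00268). The osteoclast phosphatase Acp5 was at 0.157 to 0.898 CPM there. Ctsk and Atp6v0d2, among the 5 lower osteoclast genes, are also in the alveolar list, and the Atp6v0d2 call was lost in 4 alternatives. Leaving out any 1 RPM line gave 4 lower osteoclast genes.

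**Figure D4:**
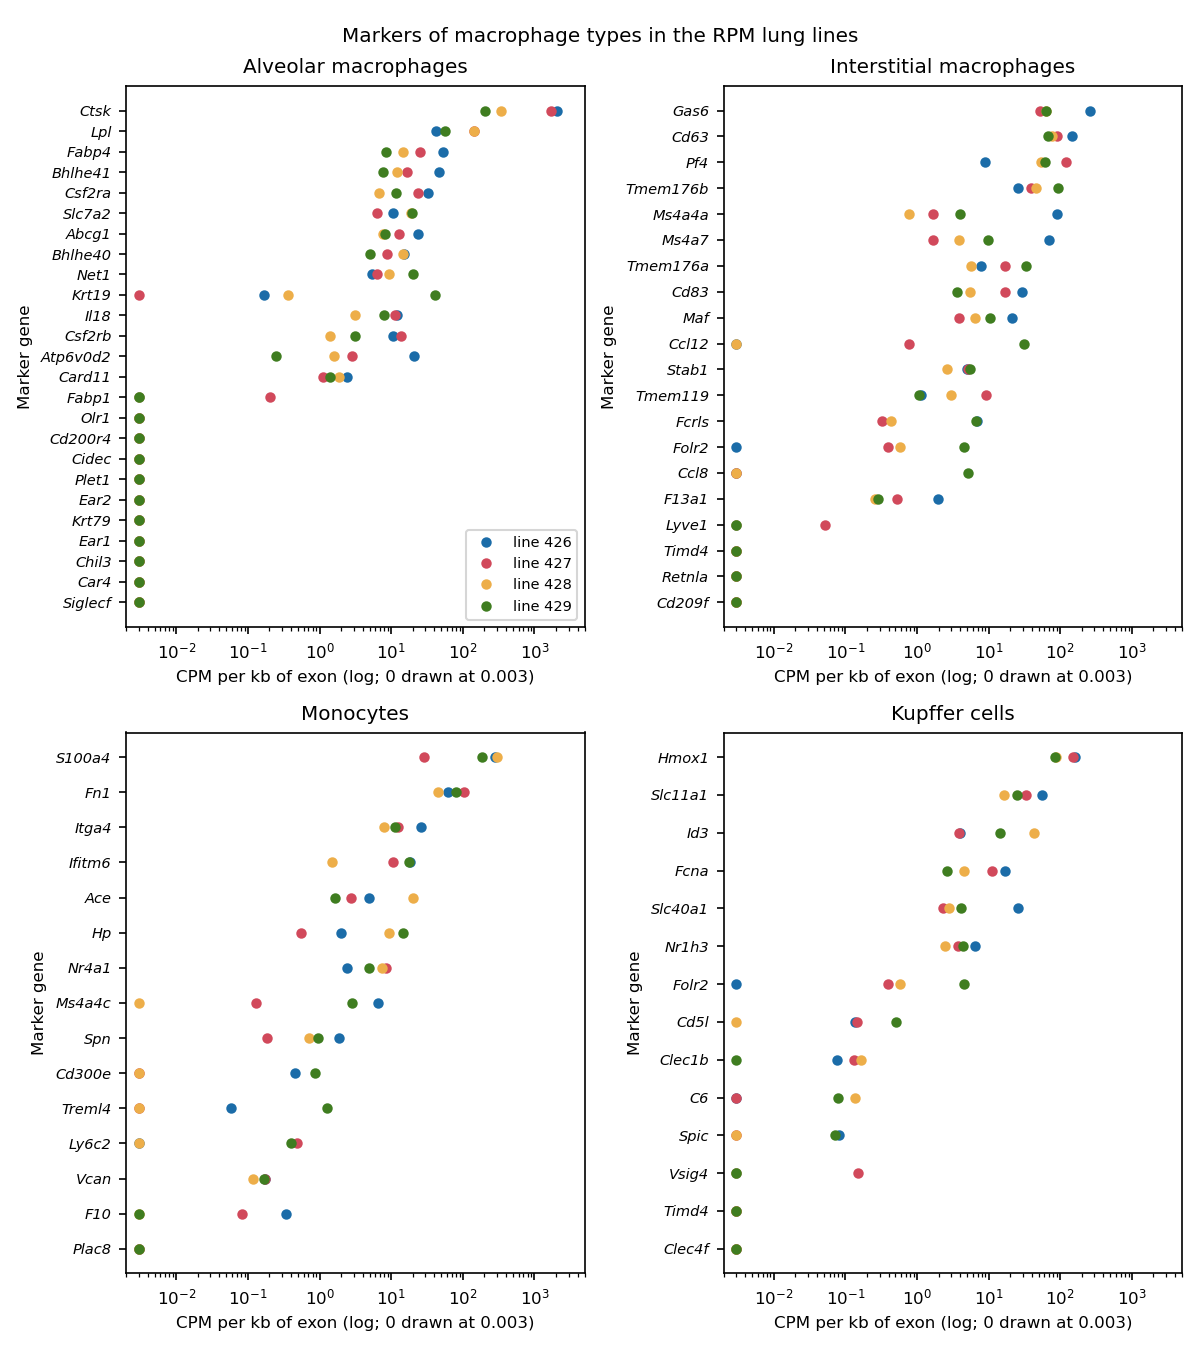
CPM per kb of exon (log axis, values of 0 drawn at 0.003) of most of the listed marker genes of macrophage types in the 4 RPM lung lines, 1 point per line. In the alveolar list a group of 10 genes lies at 0 in every line while Ctsk, Lpl and Fabp4 lie high.

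Of 21 interstitial macrophage genes, 15 were tested and 11 were lower in RPMS lines by edgeR. That count was 5 without CMV_228 and 7 without CMV_231. Gas6, a bridging ligand for dead cells, was at 672 CPM in CMV_426, 131 CPM in CMV_427, 162 CPM in CMV_428 and 161 CPM in CMV_429 (edgeR adjusted p = 0.0152, and 0.0653 without CMV_228). Pf4, a chemokine of platelets and some macrophages, was at 6.39, 87.5, 38.6 and 44.5 CPM with no count in RPMS lines (edgeR adjusted p = 0.00673). CMV_426 was the lowest line for Pf4, whereas it was the highest for Gas6. The tissue macrophage markers Lyve1, Timd4, Retnla and Cd209f had 4, 0, 0 and 0 counts over all RPM libraries.

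The monocyte list summed to 964 to 1464 CPM in the RPM lines and to 47.0 to 91.0 CPM in the RPMS lines of the first table. Of its 16 genes 9 were tested, 5 were lower and 1, Vcan, was higher in RPMS lines by edgeR. The count of lower genes was 3 without CMV_228 and 3 without CMV_231, and 8 with DESeq2. Ly6c2, the surface antigen of classical monocytes, was at 0, 1.35, 0 and 1.11 CPM in the RPM lines and Plac8 had no count. Fn1, fibronectin, which other cell types also make, was at 725, 1212, 525 and 947 CPM (edgeR adjusted p = 0.00563). S100a4, a calcium-binding protein of many motile cells, was at 166, 17.0, 174 and 109.6 CPM (edgeR adjusted p = 0.00461). Fn1 and S100a4 together carried most of the summed CPM of the monocyte list in each RPM line. They are also the highest genes of that list per kb, together with Itga4, which did not pass (edgeR adjusted p = 0.0899).

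Of 14 Kupffer cell genes, which mark resident liver macrophages, 8 were tested and 5 were lower in RPMS lines, or 8 with DESeq2. The defining Clec4f and Timd4 had no count in any RPM library and Vsig4 had 6. Several of the 5 that were lower by edgeR are known in macrophages outside the liver as well. Hmox1, haem oxygenase, was at 278, 265, 152 and 146 CPM in the RPM lines (log2 fold change -3.55 with an SE of 0.39, edgeR adjusted p = 0.00233). Slc11a1, a phagosomal metal transporter, was at 204, 123, 60.5 and 92.8 CPM with no count in RPMS lines (at least 1294-fold lower, edgeR adjusted p = 0.00203).

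The partners of the members in their pathways were counted next. Over 6 related lists with 93 genes, 75 were tested, 61 were lower in RPMS lines and none was higher by edgeR, where 15.7% and 14.9% of all genes were. The lists were drawn up with the members' pattern known, and genes at 0 in RPMS lines were tested only through their RPM level, so neither the size nor the direction of these counts is independent evidence. Of 25 lineage and growth factor genes 22 were tested and 17 were lower, among them Cd53, a leukocyte tetraspanin, at 392, 265, 99.1 and 170.4 CPM with no count in RPMS lines (at least 2499-fold lower, edgeR adjusted p = 0.00216). Lcp1, the leukocyte actin bundler L-plastin, was at 1754, 971, 506 and 474 CPM against 0.246, 0.19 and 1.15 CPM (edgeR adjusted p = 0.00203). Cebpb, a myeloid transcription factor, was at 63.9, 182, 38.4 and 64.1 CPM against 3.44, 2.41 and 37.8 CPM and did not pass (edgeR adjusted p = 0.125). The growth factor Csf2 (GM-CSF) had no count in the first table's RPM libraries.

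Of 9 oxidase partners 4 were tested and 3 were lower in RPMS lines. Rac2, the blood-cell GTPase of the complex, was at 302 CPM in CMV_426, 203 CPM in CMV_427, 89.1 CPM in CMV_428 and 143 CPM in CMV_429 against 0, 0 and 1.66 CPM (edgeR adjusted p = 0.0134). Hvcn1, the proton channel that balances its charge, was at 137, 70.6, 37.5 and 40.7 CPM (edgeR adjusted p = 0.0016). The widely made Rac1 was at 482, 289, 419.7 and 440.3 CPM against 309, 82.9 and 345 CPM and did not pass (edgeR adjusted p = 0.286). The oxidases of other tissues, Nox1, Nox4, Duox1 and Duox2, had no count in the RPM libraries.

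Of 11 complement genes besides C1q 10 were tested and 8 were lower. C3ar1, the receptor of the C3a fragment, was at 429.2, 323, 123 and 115 CPM (edgeR adjusted p = 0.00171). C3 itself was at 54.6, 23.2, 9.18 and 374 CPM, highest in CMV_429 (edgeR adjusted p = 0.00876), and its call was lost in limma-voom (adjusted p = 0.0622) and without CMV_231 (edgeR adjusted p = 0.0506). Of 17 Fc receptor and ITAM partner genes 13 were tested and 12 were lower. The IgG receptors Fcgr2b, at 109.8, 101, 13.1 and 67.7 CPM, and Fcgr4, at 50.9, 36.5, 6.05 and 27.2 CPM, were both lowest in CMV_428, as Fcgr1 was (edgeR adjusted p = 0.00465 and 0.00499). Trem1, an amplifier of inflammation in monocytes and neutrophils, had 7 counts in all.

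Scavenging and lipid genes held the most abundant of the partners. Of 20, 17 were tested and 14 were lower in RPMS lines. Gpnmb, a glycoprotein of lipid-loaded and lysosome-stressed macrophages, was at 12055 CPM in CMV_426, 7167 CPM in CMV_427, 2845 CPM in CMV_428 and 2440.4 CPM in CMV_429, against 1.35, 0 and 0.876 CPM (log2 fold change -13.0 with an SE of 1.68, edgeR adjusted p = 0.00323). Spp1, the secreted phosphoprotein osteopontin, was at 1895, 11872, 799 and 2040.0 CPM, against at most 0.614 CPM (log2 fold change -13.1 with an SE of 1.56, edgeR adjusted p = 0.00268). Gpnmb was highest in CMV_426 and Spp1 in CMV_427. Per kb of exon their means were 941 and 2519 CPM, between the means of Apoe and Lyz2. Plin2, which coats lipid droplets, was at 1086, 1690.2, 598 and 602 CPM (edgeR adjusted p = 0.00298), and Lgals3, galectin-3, at 1575, 835, 805 and 579.8 CPM (edgeR adjusted p = 0.00163). Of 11 leukotriene and prostaglandin genes 9 were tested and 7 were lower. Pla2g4a, the phospholipase that frees arachidonic acid, was at 159, 233, 120.1 and 119 CPM with no count in RPMS lines (at least 1703-fold lower, edgeR adjusted p = 0.00132). Hpgds, which makes prostaglandin D, was at 307, 141, 101 and 108 CPM (edgeR adjusted p = 0.00132). Ptgs2, the inducible cyclooxygenase, was at 59.5, 379, 38.2 and 53.1 CPM (edgeR adjusted p = 0.00557), with CMV_427 apart from the others. Alox12 and Alox15 had 3 and 4 counts over the RPM libraries.

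Of 22 activation genes 10 were tested and 8 were lower in RPMS lines. The chemokine Ccl3 was at 33.4, 53.0, 14.8 and 12.6 CPM with no count in RPMS lines (edgeR adjusted p = 0.00362). Arg1, an arginase of alternatively activated macrophages, was at 5.76, 172, 32.3 and 0 CPM and did not pass (edgeR adjusted p = 0.113). Of the 22 genes 6 had no count in RPM libraries, with the alternative-activation genes Chil3, Chil4, Retnla, Ccl17 and Ccl22 among them. As stated above for Chil3, reads shared between gene copies may not be counted. The genes named here are a part of the list, so no activation programme is read from them.

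Many markers of other blood cells had no count in the RPM lines, though few of the dendritic cell list did. Of 16 T and NK cell genes 11 had no count, Cd3d, Cd3e, Cd3g and Cd2 among them, and the list summed to 48.8 to 291 CPM. Cd28, a T cell co-receptor, was nevertheless at 268, 36.5, 42.3 and 70.1 CPM with 0.0921 CPM or less in RPMS lines (edgeR adjusted p = 0.0033). Of 10 B and plasma cell genes 5 had no count, with Cd79b and Ms4a1 among them, while Cd22, an inhibitory B cell lectin, was at 84.2, 32.9, 16.4 and 15.1 CPM (edgeR adjusted p = 0.00497). The B and plasma cell sum was 97.5 to 281 CPM in RPM lines, against 51.0 to 140 CPM in RPMS lines of the first table. Sdc1 was its highest gene per kb. Of 12 neutrophil genes 9 had no count, and their sum was 3.69 to 20.7 CPM. Of 9 mast cell and basophil genes 6 had no count and the sum was at most 0.281 CPM. Of 14 dendritic cell genes 3 had no count. Dendritic cell genes summed to 45.5 to 98.0 CPM in RPM lines and 101 to 327 CPM in RPMS lines, with 2 of 6 tested genes lower and 1 higher. The lower count was 1 without CMV_228 or CMV_231, and 3 without CMV_252.

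Genes of cells other than blood cells also differed between the RPM lines. The airway and alveolar epithelial sum of 17 genes was 203 CPM in CMV_426, 184 CPM in CMV_427, 1114 CPM in CMV_428 and 2064 CPM in CMV_429, and none of its 13 tested genes passed by edgeR in either direction (3 were lower with DESeq2). Surfactant protein C, Sftpc, was at 0, 0, 147 and 722 CPM in that order. CMV_428 and CMV_429, the 2 lines with the lowest macrophage sums, were thus the 2 with the highest epithelial sums. The fibroblast sum of 12 genes was 205, 23.3, 254 and 733 CPM against 7.16 to 17.0 CPM in RPMS lines, and 6 of 9 tested genes were lower and 1, Thy1, was higher by edgeR. The lower count was 1 with limma-voom and 9 with DESeq2. It was 2 without CMV_228 or CMV_231 and 3 without CMV_426, CMV_428, CMV_429 or CMV_252. The endothelial sum was 103, 78.9, 436 and 35.0 CPM, and the hepatocyte sum 198, 223, 41.1 and 49.0 CPM, with the iron carrier Trf at 197, 222, 35.6 and 48.5 CPM and no count of Alb, albumin, in any RPM line. The neuroendocrine sum was 78.8, 34.0, 22.1 and 15.5 CPM, and 12 of 14 neuroendocrine genes were higher in RPMS lines by edgeR, where 14.9% of all genes were. Genes this low in RPM lines entered the test through their RPMS level, so this count is a description, not read against that share. The calls of Insm1, Chga, Chgb, Dll3, Scg2 and Scg3 were lost in at least 1 alternative. Uchl1, a neuronal hydrolase, was at 5.79 to 10.9 CPM in RPM lines and 306 to 753 CPM in RPMS lines (log2 fold change 6.08 with an SE of 0.43, edgeR adjusted p = 0.0013). The part of these other cell types in the levels of the macrophage genes was not tested, and macrophage content and Stat3 genotype cannot be told apart in this design.

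**Figure D5:**
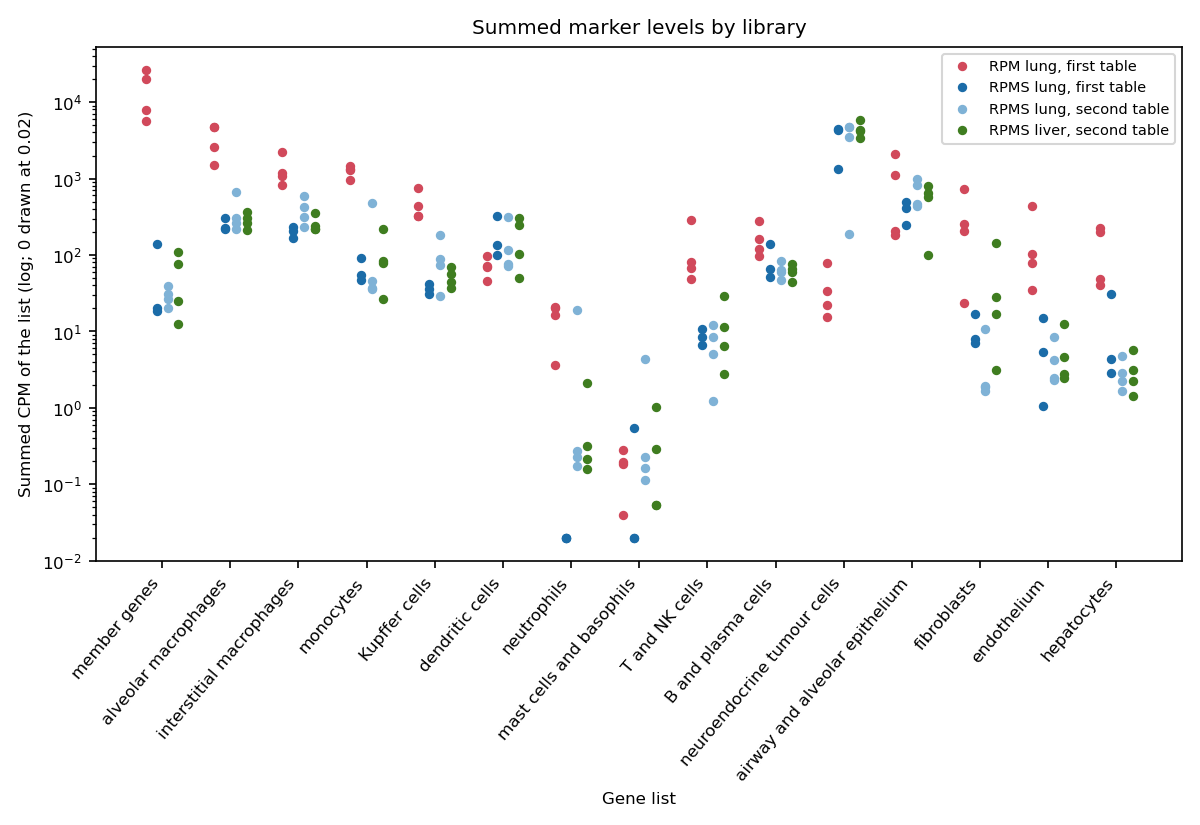
Summed CPM (log axis, sums of 0 drawn at 0.02) of the member genes and of marker lists of other cell types, 1 point per library, coloured by group. The macrophage sums of the 4 RPM lines lie above all RPMS libraries and the neuroendocrine sums of the RPM lines lie below all of them.

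RPMS libraries of the second table gave a background for the same genes. There 34 of the 37 members were under 10 CPM in every library, and 28 were under 1 CPM in every library. The summed member level was 20.3 CPM in CMV_228, 26.8 CPM in CMV_231, 30.4 CPM in CMV_232 and 39.1 CPM in CMV_252, and in the liver lines 12.4 CPM in CMV_273, 110.3 CPM in CMV_341, 24.8 CPM in CMV_343 and 76.0 CPM in CMV_344. Apoe carried most of the 2 highest sums, at 87.8 CPM in CMV_341 and 54.9 CPM in CMV_344. Cd163 was at 10.2 CPM in CMV_341 and at most 0.307 CPM in any other library of that table. CMV_341 also had the highest fibroblast sum of the second table, at 145 CPM against 1.66 to 28.0 CPM. The tables were scaled apart, so levels across them are set side by side without a test.

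RPMS liver lines were then compared with RPMS lung lines within the second table. Its libraries had no part in choosing the members, but 3 of the 4 lung lines are the lines whose first libraries did, so the lung arm is independent of the choice as libraries and not as lines. Of 14441 genes tested by edgeR, 0.0% were called lower and 0.0% higher, with 650 genes at an unadjusted p under 0.05 and a lowest adjusted p of 0.0857. DESeq2 called 11 genes lower and 64 higher, and limma-voom none. Of the 37 members 4 passed the filter on low counts (Cd68, Mrc1, Pparg and Apoe), none was called, and none had an unadjusted p under 0.05 by edgeR. Without a filter edgeR tested 35 members, of which 3 had an unadjusted p under 0.05. By DESeq2 1 of 17 members did, and neither alternative called a member. Apoe was at 5.53, 4.02, 12.7 and 25.6 CPM in the lung lines CMV_228, CMV_231, CMV_232 and CMV_252, and at 4.83, 87.8, 11.4 and 54.9 CPM in the liver lines CMV_273, CMV_341, CMV_343 and CMV_344. The groups overlapped, and the log2 fold change was 1.73 (SE 0.94 and edgeR adjusted p = 0.945). Pparg was at 1.98, 4.56, 1.09 and 2.23 CPM in lung lines and at 1.08, 1.66, 1.28 and 1.65 CPM in liver lines. Its log2 fold change was -0.80 (SE 0.50 and edgeR adjusted p = 0.945), again with overlap. Mrc1 was at 0.903, 5.7, 8.93 and 0.0768 CPM in lung lines and at 0.38, 0.107, 5.27 and 2.14 CPM in liver lines (log2 fold change -0.98 with an SE of 1.36, edgeR adjusted p = 0.966). Cd68 was at 4.18 to 10.3 CPM in lung lines and 4.01 to 8.08 CPM in liver lines (log2 fold change -0.19 with an SE of 0.43, edgeR adjusted p = 0.978). Without CMV_252, which stood apart, the log2 fold change was 2.42 for Apoe (edgeR adjusted p = 0.835), -0.84 for Pparg (0.897) and -1.36 for Mrc1 (0.931). A p above the threshold does not show that liver and lung lines had like levels.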

How the data were processed

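Both deposited tables give whole, unnormalized counts of reads for each gene. HISAT2, StringTie and GRCm38 are named per the submitters' processing notes; versions, annotation, strand setting and treatment of multi-mapped reads are not given in the sources used here. RNA was made into stranded libraries per the labels' protocols. The second table's 1832 records without a name (0.0569% to 0.0799% of counts) were left out, and Itgam's 2 records there were summed. No pair of libraries within a table, nor the 2 libraries of a line in both tables, agreed within sampling noise.

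Members and lists were chosen with earlier results of these data known. In R 4.3.3, edgeR 4.0.16 (default expression filter, TMM, two-sided quasi-likelihood test, Benjamini-Hochberg over all genes, 0.05) compared groups within a table: 17654 and 14441 genes tested. On simulated counts, 99% of 4-fold and 98% of 16-fold changes were recovered in the first table (18254 genes), and 97% and 93% in the second (15237 genes); these counts had a single preset dispersion for every gene, not that of these lines, so the shares do not give the power for the members. Alternatives were DESeq2 1.42.0, limma-voom (limma 3.58.1), relative log expression factors, no filter, a minimum of 10 counts, and leaving out each library. Every member was named; of each list, up to 4 genes highest per kb and 4 lowest in counts. Others, including Csf2ra, Csf2rb, Nfatc1, Vcan, Siglecf and the further genes at 0, were chosen after their values were seen. Fold bounds use 3 counts per RPMS library. Exon lengths came from GENCODE M21, promoters from RefSeq GRCm38.p6. Some genes that this rule names are not reported here.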

Additional observations from a re-analysis of the deposited data

Results flagged for a closer look

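Groups of 4 libraries were checked for 1 library far from the other 3, and 12 of 69 groups were picked out. Chance picks about 1 in 20 groups of continuous values, a rate that does not hold for the groups with a few counts beside 0. In the RPM lines, CMV_426 stood apart for Laptm5 (862 CPM, others 212 to 317), Fcer1g (406 CPM, others 113 to 154) and Ccr2 (2.98 CPM, others 1.00 to 1.05).

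Among RPMS liver lines, CMV_344 stood apart for Vav1 (1.36 CPM, others 0 to 0.106), Adgre1 (0.389 CPM), Aif1 (0.681 CPM) and Fcgr1 (0.584 CPM), which are 14, 4, 7 and 6 counts in the order named. This library had the fewest counts (9453715) and the most genes detected (30341). CMV_341 stood apart for Cd163 (10.2 CPM, others 0 to 0.266). Among the RPMS lung lines of the second table, CMV_252 stood apart for Cd163 (0.307 CPM, 4 counts), Cd36 (0.845 CPM, 11 counts) and Cd14 (0.922 CPM, 12 counts), with 0 CPM of Cd163 and Cd14 in the other 3. It was also the library with the lowest neuroendocrine sum, and whether the 2 are related was not tested. CMV_228 stood apart for Fcer1g (1.13 CPM, others 0.286 to 0.380).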

How the results depend on the processing

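No paired analysis was possible because the groups compared share no line number. RPMS against RPM lung called 2764 genes lower and 2639 higher. Leaving out each library gave 1594 to 3546 and 1302 to 3530. The counts were 1594 and 1302 without CMV_228, 1708 and 1395 without CMV_231, and 3546 and 3530 without CMV_252. The 107 list genes called lower became 81 to 106. Of 123 list genes called in either direction, 85 kept their call under every alternative that gave a value, and the 38 others lost it in at least 1; the cause was not tested. Liver against lung called no gene, against 1 lower and 1 higher without a filter, and 11 lower and 64 higher with DESeq2; no alternative called a member. Apoe's log2 fold change there was 0.98 to 2.42 with each library left out, Pparg's -1.05 to -0.32 and Mrc1's -2.19 to -0.19. The log2 ratio of alveolar to interstitial sums turned in CMV_429 from -0.08 per kb of exon to 0.46 in CPM. Per kb with Ctsk left out it turned to -1.41 in CMV_426, -0.74 in CMV_427 and -0.32 in CMV_428, since Ctsk carries most of the alveolar sum per kb. In CPM with Ctsk left out it turned in CMV_426 alone.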
